A study of Mus musculus with 12 samples.

Results

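RNA polymerase II transcribes the protein-coding genes, and the Mediator complex connects it to transcription factors bound at enhancers and promoters. The mRNAs of their subunits were followed in 3T3-L1 cells, a mouse preadipocyte fibroblast line that turns into fat cells after a hormone cocktail. The members were all non-control array probes whose transcript accession belongs to a gene named Polr2a to Polr2m, Med with a number, Ccnc or Cdk8. These were 69 probes of 43 genes, out of 41174 non-control probes on the array. Of them, 15 probes stood for 12 RNA polymerase II genes and 54 probes for 31 Mediator genes. The rule names 45 genes, and Polr2d and Med6 were not analysed here. The rule uses names and no measured values.

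Uninduced cells (0 h) were compared with cells 6 h into induction, for which insulin (5 µg/ml), dexamethasone (1 µM) and the phosphodiesterase inhibitor IBMX (0.5 mM) had been given. The study describes growth in newborn bovine serum and an induction medium with fetal bovine serum. Serum and medium thus also differed between the times, and their part was not tested. Lysates were separated on sucrose gradients, from which a non-polysomal pool (fractions 5 to 7) and a polysomal pool (fractions 9 to 11) were taken. The 4 groups, abbreviated np0, p0, np6 and p6 for fraction and hour, held 3 arrays each. All 4 came from a single cell line, and total RNA of unfractionated cells was not measured on these arrays, so a change in a fraction can be a change of the whole mRNA level or of its distribution. In RNA of whole cultures, fewer cells that express a gene and less RNA per cell cannot be told apart.

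Background-subtracted intensities were expressed on the log2 scale and scaled by spike-in RNAs, so a value is a level relative to the spike-ins. Between 55.7% and 60.8% of the probes of an array were well above background. The spike-in offset was 0.10 ± 0.07 in np0, 0.13 ± 0.02 in p0, 0.12 ± 0.04 in np6 and -0.35 ± 0.14 in p6 (SD, n = 3), so p6 was shifted against the other groups by the scaling itself. All 10 fibroblast and preadipocyte marker genes were well above background on every array. Of 8 mature adipocyte markers 4 were detected on all arrays (Adipoq, Cidec, Fabp4 and Plin1), and 3 on none (Cfd, Lep and Slc2a4). Of the other lists, Csf1r of 4 macrophage genes, Emcn of 5 endothelial genes and Krt5 and Krt8 of 5 epithelial genes were detected on all arrays. Their part in the results was not tested.

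As background, the RNA polymerase II core is built around the catalytic subunits Polr2a and Polr2b. Polr2a carries the C-terminal repeat domain, whose phosphorylation accompanies initiation and elongation. Polr2c and Polr2j nucleate assembly, Polr2g belongs to the stalk, and Polr2e, Polr2f, Polr2h, Polr2k and Polr2l are shared with RNA polymerases I and III. Mediator is divided into a head and a middle that contact the polymerase, a tail that contacts activators, the scaffold Med14, and a detachable kinase module with Cdk8, cyclin C, Med12 and Med13. In adipocytes Med1 is known as a coactivator partner of PPARγ. IBMX raises cyclic AMP, which acts on promoters through the cyclic AMP response element.

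Promoter sequence is shown for Polr2a, the member whose non-polysomal RNA fell most, and for Med22, the member with the highest rise in polysomal RNA. The 250 bases before the annotated start are given 5′ to 3′ on the gene's strand (RefSeq, GRCm38.p6; both genes lie on the minus strand; Polr2a chr11:69758634-69758883, Med22 chr2:26910643-26910892). Capitals mark TGACG or CGTCA, the core of the cyclic AMP response element on either strand, TATAAA or TTTATA, the TATA box, and GGGCGG or CCGCCC, the Sp1 GC box.
Polr2a: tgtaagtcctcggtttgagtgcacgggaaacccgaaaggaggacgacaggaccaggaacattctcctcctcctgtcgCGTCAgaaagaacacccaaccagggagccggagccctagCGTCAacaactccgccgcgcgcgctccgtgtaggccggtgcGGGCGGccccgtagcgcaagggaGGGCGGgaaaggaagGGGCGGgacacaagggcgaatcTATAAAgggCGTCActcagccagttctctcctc
Med22: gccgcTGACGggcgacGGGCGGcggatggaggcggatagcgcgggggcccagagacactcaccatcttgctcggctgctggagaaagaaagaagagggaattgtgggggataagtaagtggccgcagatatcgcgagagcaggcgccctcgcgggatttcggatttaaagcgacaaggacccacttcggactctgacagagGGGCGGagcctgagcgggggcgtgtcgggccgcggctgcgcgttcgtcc
In the Polr2a window CGTCA began 173, 134 and 24 bases before the start, TATAAA 33 bases before it and GGGCGG 93, 70 and 55 bases before it. The Med22 window held TGACG 245 bases and GGGCGG 234 and 49 bases before the start. The response element core was found in 12 of the 37 member genes with a window (30.2% of their 43 windows), against 17.8% of all 32851 windows. TATAAA was found in Polr2a, Polr2c, Med7, Med16 and Med28 (11.6% of member windows against 12.4% of all), and GGGCGG in 26 genes (65.1% of windows against 32.7%). These are matches of letters and show no binding.

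The main question was whether the high M-value of Polr2a is matched by the other subunits. The study had already listed Polr2a among its up-regulated mRNAs from these same arrays. Its high M-value and p-value here are therefore not an independent result. The M-value is the log2 change of the polysomal to non-polysomal ratio, (p6 - np6) - (p0 - np0), and is positive when a message shifted to the polysomal side over 6 h. Polr2a had an M-value of 4.01 (95% interval 2.29 to 5.72), and it was not matched by the other subunits. The next measured probe was a Med14 probe with 1.44 (3.39 with normexp, where the median of all probes was 3.20 and Polr2a was at 4.36), and the other RNA polymerase II subunits lay between -0.38 and 1.22 with a median of 0.45 over 14 probes. The highest upper 95% limit among the other measured members was 2.00, below the lower limit of Polr2a. Each interval uses a spread shared by the 4 groups. That of Polr2a mixes widely spread non-polysomal with closely spaced polysomal arrays, so its lower limit is uncertain. Measured means here that the probe was well above background on all 3 arrays of at least 1 group, which held for 64 of the 69 probes.

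Polr2a was represented by 1 probe that is printed in 10 spots on each array. Its log2 signal was 12.22, 10.18 and 12.05 in np0, and 9.16, 7.68 and 7.70 in np6. In the polysomal fraction it was 8.15, 7.72 and 7.62 at 0 h and 8.67, 8.46 and 8.47 at 6 h. The np0 arrays thus stood above all 9 others, without overlap, and the p6 arrays stood just above those of p0. The non-polysomal signal fell by 3.30 on the log2 scale (SE 0.54, limma adjusted p = 6.1e-04). The polysomal difference was 0.70 (95% interval -0.51 to 1.92, limma adjusted p = 0.28) and did not pass the test. The large M-value of Polr2a (limma adjusted p = 0.0026) was therefore made up mainly of the non-polysomal decrease. It was positive in each replicate number, at 3.58, 3.23 and 5.20. The fit gives each probe a single spread shared by the 4 groups. For Polr2a this mixed widely spread non-polysomal with closely spaced polysomal arrays. The SE of the non-polysomal fall and the test in polysomes both rest on this mix.

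The level of Polr2a in np0 was also the least reproducible among the measured members. Its SD over the 3 np0 arrays was 1.13, whereas the other measured members had a median SD of 0.07 and a maximum of 0.47 there. An SD as high was found in 0.689% of the measured probes of the array. Within an array the spots were close, with SDs of 0.09 to 0.23 in np0, so the spread lay between arrays. The np6 arrays also spread, with replicate 1 at 9.16 and the others at 7.68 and 7.70. The scanner software had marked 19 of the 30 np0 spots as outliers, against 1, 3 and 1 of 30 in p0, np6 and p6. With the marked spots kept, the M-value was 3.90. Leaving out replicate 3 gave an M-value of 3.41, which no longer passed the test (limma adjusted p = 0.080).

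**Figure D1:**
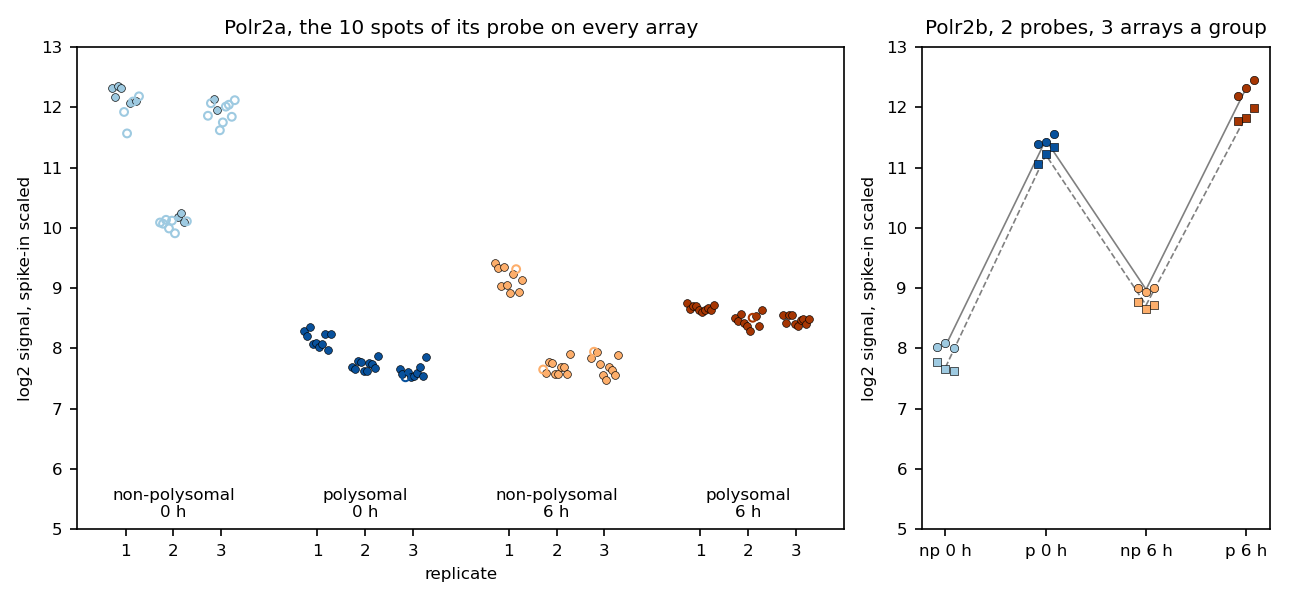
Spike-in scaled log2 signal (y axis) of Polr2a in each of its 10 spots on the 12 arrays (left; x axis, replicate within group; open circles are spots marked as outliers by the scanner software) and of the 2 Polr2b probes (right; circles and squares, 1 point per array, lines join group means). Polr2a was highest in the non-polysomal fraction at 0 h with replicate 2 at 10.18 and the others above 12, and Polr2b was highest in the polysomal fraction at both times.

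Polr2b, which forms the active site together with Polr2a, behaved differently at both of its probes. The first probe measured 8.02, 8.08 and 8.01 in np0 and 8.99, 8.93 and 9.01 in np6. Its polysomal signal was 11.38, 11.43 and 11.56 at 0 h and 12.19, 12.33 and 12.46 at 6 h. The groups did not overlap, and p6 was the highest. Both fractions rose, by 0.94 (non-polysomal, limma adjusted p = 7.6e-06) and 0.87 (polysomal, limma adjusted p = 9.0e-06). The M-value was -0.07 at this probe and -0.38 at the second (limma adjusted p = 0.049), and the latter turned positive, to 0.0092, when a straight line was fitted through the spike-ins. Where the catalytic partner rose in the non-polysomal fraction, Polr2a fell there.

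Across all members, 8 probes of 7 genes were higher by M-value beyond 2-fold (limma adjusted p below 0.05) and 0 were lower (also 0 at an unadjusted p), against 12.1% and 1.31% of all probes. At any size 36 were higher and 3 lower, against 32.1% and 3.98% of all probes. Among measured probes these were 36 and 3 of 64, against 11804 and 1559 of 25025. The median M-value of the members, 0.53, was near that of all probes, 0.49, and 37 of the 69 lay above the latter. This general shift depended on the scaling. With 75th percentile scaling the median was 0.11 in the members and 0.06 in all probes, 2 members were higher beyond 2-fold and 0 lower, and with quantile normalization the medians were 0.010 and -0.00075 and the counts 1 and 1. Among all probes, 90.2% of the calls were higher, against 51.9% when scaled to the 75th percentile and 44.6% when quantile normalized. All 8 probes kept their sign in these scalings, and 8 and 7 of them stayed below an adjusted p of 0.05. Of all 69 members, 35 changed the sign of M in at least 1 scaling.

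The other shifted members were spread over both complexes. Polr2h, a small subunit shared by all 3 polymerases, measured 9.01, 8.98 and 8.89 in np0 and 9.58, 9.63 and 9.71 in np6. In p0 it was 8.69, 8.74 and 8.76, and in p6 10.60, 10.61 and 10.69. No groups overlapped. Its fraction difference went from -0.23 at 0 h to 1.00 at 6 h, although at 6 h the other scalings to the 75th percentile and by quantiles gave -0.32 and -0.37. Its M-value was 1.22 ± 0.10 (SE, limma adjusted p = 1.5e-05), 0.74 above the median of all probes. Unlike Polr2a, Polr2h rose in both fractions, by 0.68 and 1.90.

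Med14, the scaffold that joins head, middle and tail, shifted at 1 of its 3 probes beyond 2-fold. That probe, dim at 3.31, 3.70 and 3.07 in np0 and 3.49, 3.86 and 3.50 in p0, reached 4.22, 4.34 and 3.97 in np6. In p6 it stood at 5.94, 5.68 and 5.98, above all other arrays. Its M-value was 1.44 (limma adjusted p = 0.0015; 0.054 without replicate 1), whereas the other probes of Med14 gave 0.64 and 0.52. The last of these, at 8.17, 8.47 and 8.23 in np0, 9.62, 9.98 and 9.87 in p0, 9.85, 9.71 and 9.80 in np6 and 11.86, 11.74 and 11.91 in p6, was -0.010 with quantile normalization. The range of 0.92 between the Med14 probes was the widest of the 19 genes with at least 2 measured probes, whose median range was 0.21. All 3 Med14 probes rose in both fractions.

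Med9, a subunit of the middle module, had the second highest M-value among the measured Mediator genes. Its signal was 11.41, 11.36 and 11.32 in np0 and 11.03, 10.89 and 10.94 in np6. In the polysomal fraction it went from 10.30, 10.48 and 10.56 to 11.13, 11.14 and 11.31. The non-polysomal groups and the polysomal groups each separated, in opposite directions. Med9 fell by 0.41 in the non-polysomal fraction (limma adjusted p = 0.0035) and rose by 0.75 in the polysomal one (limma adjusted p = 4.4e-05), with an M-value of 1.16 (limma adjusted p = 9.6e-05). Med9 was the member in which a non-polysomal decrease and a polysomal increase both passed the test, although with quantile normalization the polysomal increase was 0.13 (limma adjusted p = 0.082).

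Med25, a tail subunit that binds transcriptional activators, had an M-value of 1.09 at both probes (limma adjusted p = 7.0e-05 and 4.6e-04). The first probe was at 10.99, 11.12 and 10.98 in np0 and 10.20, 10.13 and 10.05 in np6, a decrease without overlap. In the polysomal fraction it was 13.13, 13.27 and 13.04 at 0 h and 13.36, 13.34 and 13.32 at 6 h. Its change was thus in the non-polysomal RNA (-0.90). The second probe, at 12.34, 12.56 and 12.25 in np0 and 12.29, 12.24 and 12.28 in np6, had a non-polysomal difference of -0.12 (limma adjusted p = 0.49). In the polysomal fraction the second probe went from 13.10, 13.37 and 13.20 to 14.25, 14.03 and 14.32, and rose by 0.98. The probes thus gave the same M-value from different fractions, and with quantile normalization the M-value was 0.25 at the first (limma adjusted p = 0.13) and 0.39 at the second.

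Med26, which recruits elongation factors to the polymerase, was at 9.61, 9.68 and 9.57 in np0 and 10.13, 10.01 and 9.98 in np6. Its polysomal signal was 10.71, 10.89 and 10.95 at 0 h and 12.40, 12.17 and 12.51 at 6 h. The rise was steeper on the polysomal side, 1.51 against 0.42, and the M-value was 1.09 (limma adjusted p = 3.1e-04). Med28, of the junction between head and tail, rose in the polysomal fraction from 4.39, 4.30 and 4.46 to 5.47, 5.59 and 6.01 at a dim probe, whose np0 arrays were at 6.14, 6.16 and 5.98 and whose np6 arrays were at 6.48, 6.34 and 6.18. The M-value was 1.07 there (limma adjusted p = 0.0021; 0.054 without replicate 2) and 0.34 at the second, brighter probe (limma adjusted p = 0.051).

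**Figure D2:**
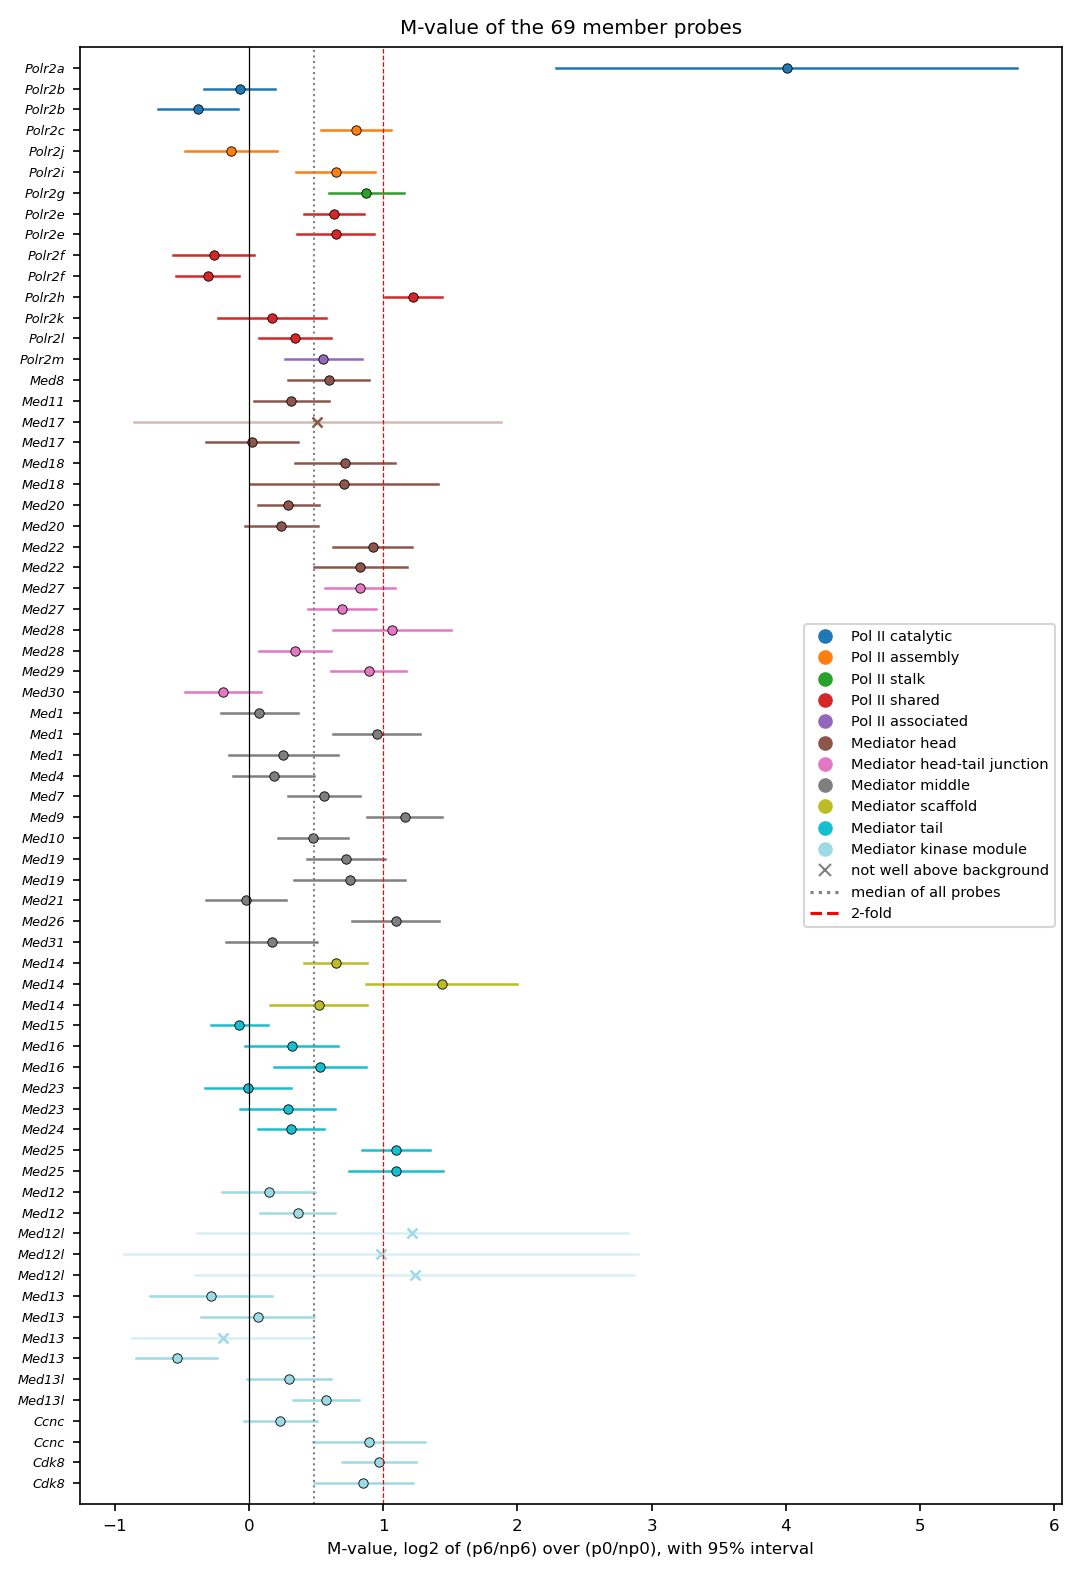
M-value (x axis, log2) of the 69 member probes with its 95% interval, 1 row per probe in order of role; crosses are the 5 dim probes, which no group measured on all its arrays. Polr2a stood at 4.01, while all other measured probes lay between -0.54 and 1.44 around the median of all probes at 0.49.

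Within the roles, the highest and lowest M-values were close to each other compared with Polr2a. Of the assembly and jaw subunits Polr2c was the highest, at 0.80, and its signal rose from 11.56, 11.75 and 11.57 to 12.08, 12.05 and 12.12 in the non-polysomal and from 12.43, 12.68 and 12.53 to 13.79, 13.80 and 13.81 in the polysomal fraction. Polr2j was the lowest, at -0.13 (0.23 with a line through the spike-ins). Polr2j rose alike in both, from 12.07, 12.18 and 12.07 to 13.30, 13.26 and 13.33 and from 10.30, 10.64 and 10.27 to 11.32, 11.47 and 11.59. The stalk subunit Polr2g, with 0.87, was bright in all groups and ran from 14.07, 14.19 and 13.90 in np0 and 14.72, 14.68 and 14.62 in np6 to 14.89, 14.93 and 14.97 in p0 and 16.39, 16.34 and 16.54 in p6. Its M-value was -0.028 with quantile normalization. The brightness of Polr2g is given on its own scale and is not a comparison of abundance with other probes.

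The shared subunit Polr2f had the lowest M-value of its role, -0.31 (limma adjusted p = 0.045; 0.0067 with a line through the spike-ins). It rose in np from 12.99, 13.01 and 12.98 to 14.56, 14.49 and 14.48, and in p from 10.60, 10.77 and 10.67 to 11.79, 11.90 and 11.98. Polr2m, which encodes the polymerase-associated protein Gdown1, was at 15.04, 15.09 and 14.97 in np0, 15.17, 15.09 and 15.03 in np6, 12.24, 12.52 and 12.43 in p0 and 12.97, 12.96 and 13.12 in p6. Its non-polysomal groups overlapped, while the polysomal RNA rose by 0.62 (limma adjusted p = 1.9e-04; -0.25 with quantile normalization), with an M-value of 0.55. Both messages stayed on the non-polysomal side at both times.

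In the Mediator head the M-values ran from Med17 (0.02) to Med22 (0.92). Med17 rose from 7.00, 7.06 and 6.92 to 7.61, 7.47 and 7.52 in the non-polysomal and from 9.53, 9.82 and 9.80 to 10.26, 10.12 and 10.45 in the polysomal fraction, and its M-value turned to -0.40 with 75th percentile scaling. Med30, the lowest of the junction at -0.19, was at 11.69, 11.73 and 11.67 in np0, 11.48, 11.43 and 11.46 in np6, 10.28, 10.58 and 10.43 in p0 and 9.94, 9.93 and 10.12 in p6. It was among the few members whose polysomal RNA fell, by 0.43 (limma adjusted p = 0.0021). Med21, the lowest of the middle at -0.02, went from 10.55, 10.57 and 10.53 to 11.19, 11.22 and 11.14 in np and from 9.78, 10.06 and 10.07 to 10.46, 10.58 and 10.69 in p.

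In the tail Med15, which is known as a partner of the lipid regulators of the SREBP family, was the lowest at -0.07. It rose in both fractions, from 8.06, 8.12 and 8.08 to 8.70, 8.69 and 8.77 and from 9.73, 9.90 and 9.82 to 10.43, 10.34 and 10.36. In the kinase module Cdk8, the kinase itself, was the highest measured member at 0.97 and went from 8.13, 8.20 and 8.02 to 8.88, 8.82 and 8.72 in np and from 8.24, 8.48 and 8.44 to 10.02, 10.02 and 10.09 in p. Med13, which links the kinase to core Mediator, was the lowest of all members at -0.54 (limma adjusted p = 0.011; 0.18 with a line through the spike-ins). That probe was at 6.53, 6.48 and 6.39 in np0 and 6.63, 6.43 and 6.48 in np6, which overlapped, and fell from 7.79, 7.99 and 8.06 in p0 to 7.37, 7.41 and 7.57 in p6. The other measured probes of Med13 gave M-values of -0.28 and 0.06, neither of which passed the test.

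Counted by role, M was higher at any size in 2 of 3 assembly and jaw probes, 4 of 7 shared probes, 5 of 10 head probes, 4 of 6 junction probes, 7 of 12 middle probes, 3 of 8 tail probes and 5 of 15 kinase module probes, against 32.1% of all probes. The 3 lower probes were those of Polr2b, Polr2f and Med13 described above, against 3.98% of all probes. Of the 25025 measured probes of the array 11804 were higher and 1559 lower. The calls of Polr2b and Polr2f were kept in 8 of 25 alternatives each, and that of Med13 in 21. Of the 39 probes higher or lower at any size, 10 changed sign in another scaling. With 75th percentile scaling 22 of these calls were kept, with quantile normalization 15 and with a line through the spike-ins 36. The 5 dim probes were all 3 of Med12l, a paralog of Med12, and 1 each of Med13 and Med17. They have no measured change, and their log2 signal did not exceed 3.16 on any array.

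Polysomal RNA of the members rose widely over 6 h. Beyond 2-fold 33 probes rose and 2 fell, against 19.2% and 5.01% of all probes. At any size 50 rose and 7 fell, against 50.6% and 11.7%. Among measured probes 49 and 7 of 64 did so, against 14161 and 4665 of 25025. With 75th percentile scaling 16 rose and 4 fell beyond 2-fold, and with quantile normalization 14 and 5, while no probe called beyond 2-fold changed sign. The median of the members was 0.89 and that of all probes 0.54, and all 15 RNA polymerase II probes lay above the latter, 14 of them with an increase that passed the test. The exception was Polr2a, whose polysomal arrays did not overlap between the times. Its test used a spread shared with its variable non-polysomal arrays. With quantile normalization Polr2i (-0.02), Polr2m (-0.25) and the second Polr2b probe (-0.05) were below 0.

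Med22, a head subunit, had the highest increase. Its first probe went from 10.69, 10.88 and 10.73 in p0 to 13.08, 13.22 and 13.30 in p6, a 5.41-fold rise (log2 2.44 ± 0.09, SE, limma adjusted p = 1.4e-08). In the non-polysomal fraction it rose as well, from 10.32, 10.46 and 10.25 to 11.93, 11.86 and 11.78. Both fractions separated completely between the times, and the second Med22 probe rose by 2.08 and 1.25. Polr2l, a small shared subunit, rose 4.94-fold in polysomes and 3.89-fold outside them (log2 2.30 and 1.96, limma adjusted p = 1.1e-08 and 6.3e-08). Its signal was 14.88, 15.03 and 14.94 in np0, 16.89, 16.92 and 16.91 in np6, 11.97, 12.25 and 12.12 in p0 and 14.36, 14.40 and 14.50 in p6. Other high increases in polysomal RNA were those of Med29 (2.09), Med8 (2.01), Polr2h (1.90) and the 3 Med14 probes (1.87 to 2.25).

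At any size 50.6% of all probes rose in polysomes and 11.7% fell. Of the 25025 measured probes 14161 rose and 4665 fell. By role, all 7 probes of shared RNA polymerase subunits and 10 of 10 head probes (1 of them the dim Med17 probe) rose. So did 10 of 12 middle probes and all 3 Med14 probes. In the tail 2 of 8 rose and 3 fell, and in the kinase module 6 of 15 rose and 3 fell. The 7 decreases were in Med12 (both probes), Med16 (both probes), Med13, Med23 and Med30. Only those of Med12 were beyond 2-fold, and for Med13 and Med23 they changed sign in another scaling. Of the 57 rises and falls at any size, 8 changed sign in at least 1 scaling, and 42 were kept with quantile normalization. In the head Med11 went from 0.23 to -0.25 with 75th percentile scaling and to -0.35 with quantile normalization.

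In the non-polysomal fraction 13 probes rose and 5 fell beyond 2-fold, against 8.09% and 8.14% of all probes. At any size 42 rose and 11 fell, against 20.5% and 19.7%. Among measured probes these were 42 and 11 of 64, against 8144 and 7740 of 25025. The median was 0.54 in the members and 0.04 in all probes, and no call at any size changed sign with the other scalings. Of the 14 RNA polymerase II probes besides Polr2a 12 rose and 0 fell, and Polr2i (0.08) and Polr2m (0.07) did not pass the test. Beyond 2-fold the risers were Polr2b (1 of 2 probes), Polr2f, Polr2j, Polr2l, Med8, Med13l (1 of 2), Med14 (2 of 3), Med20 (1 of 2), Med22 and Med29. The 5 decreases beyond 2-fold were Polr2a and both probes of Med12 and of Med16.

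Med12 and Med16 were the genes that fell in both fractions at every probe. Med12, which activates Cdk8 in the kinase module, fell at its brighter probe from 9.65, 9.77 and 9.77 to 8.24, 8.28 and 8.27 outside polysomes and from 10.43, 10.75 and 10.61 to 9.43, 9.47 and 9.58 in them. The log2 changes were -1.47 and -1.10 (limma adjusted p = 5.4e-07 and 2.4e-06), and at the other probe -1.21 and -1.07. Without replicate 2, or without the p0 array of replicate 2 alone, 1 of the 2 probes fell beyond 2-fold in polysomes. Med16, a tail subunit, fell at its first probe from 8.12, 8.25 and 8.02 to 7.08, 6.99 and 6.72 outside polysomes and from 10.83, 11.06 and 11.00 to 10.11, 10.06 and 10.08 in them. The changes were -1.20 and -0.88, and at the second probe -1.38 and -0.85, all with a limma adjusted p below 0.05. Med12 thus fell while its partner Cdk8 rose at its first probe, by 0.69 outside polysomes and 1.66 in them, and cyclin C rose at both probes in both fractions.

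By role, non-polysomal calls at any size stood beside 20.5% of all probes that rose and 19.7% that fell. Of the 25025 measured probes 8144 rose and 7740 fell. In the tail as a whole, 5 of 8 probes fell in the non-polysomal fraction and only Med15 rose. Those that fell were both Med16 probes, the second Med23 probe, the Med24 probe and the first Med25 probe. The middle module was divided, with 9 probes that rose and 3 that fell (Med9 and both probes of Med19). In the head 8 of 10 rose and none fell.

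**Figure D3:**
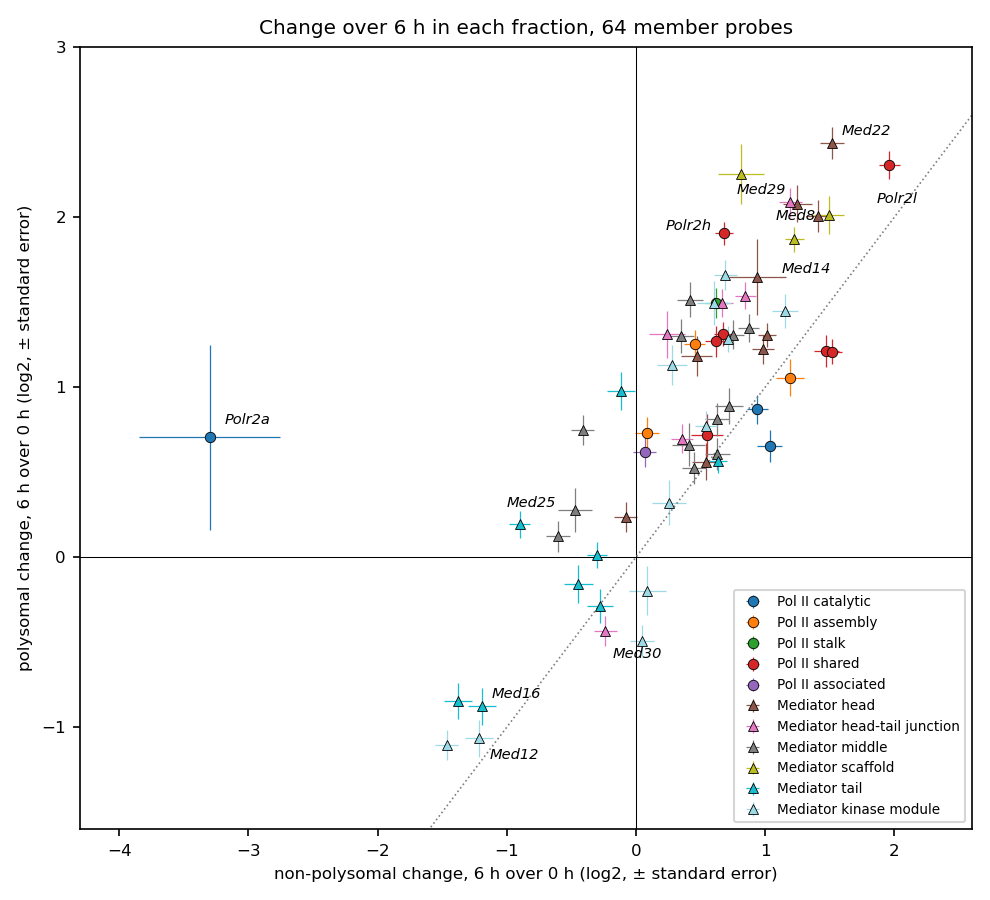
Log2 change from 0 h to 6 h in the non-polysomal (x axis) and the polysomal fraction (y axis) for the 64 measured member probes, with standard errors; circles are RNA polymerase II and triangles Mediator subunits, and the dotted diagonal marks equal change (M = 0). Polr2a stood alone at -3.30 and 0.70, Med12 and Med16 lay at the lower left, and most others rose in both fractions.

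The fractions also differed among the members before induction. At 0 h 28 probes were higher in polysomes beyond 2-fold and 11 lower, against 27.4% and 9.81% of all probes. At any size 45 were higher and 18 lower, against 37.1% and 14.9%. With 75th percentile scaling these counts were 9 and 21, and with quantile normalization 10 and 16, so the balance between the fractions depended on the scaling, under which the median of all probes went from 0.15 to -0.74 and 0.03. No member called beyond 2-fold at 0 h changed sign. Relative to the median of all probes, 41 of 54 Mediator probes stood on the polysomal and 9 of 15 RNA polymerase II probes on the non-polysomal side. Among measured probes only, the members were near the array, with medians of 0.85 in the members and 0.76 in all. Beyond 2-fold 28 of 64 measured members were higher in polysomes, against 10833 of 25025 measured probes. Lower were 11 of 64, against 3593 of 25025.

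Polr2b was the most polysomal member at 0 h (3.42 and 3.53), followed by Med16 (2.84 and 2.78), Med17 (2.72), Med24 (2.67) and Med27 (2.45 and 1.98). All 8 tail probes were higher in polysomes, although the second Med25 probe (0.84) changed sign with another scaling. At the other end Polr2a (-3.65) was followed by Polr2l (-2.83), Polr2m (-2.64), both Polr2f probes (-2.05 and -2.31), Polr2i (-1.86), Polr2j (-1.70) and Polr2k (-1.51). In Mediator Med28 (-1.71 and -1.11) and Med30 (-1.27) were non-polysomal. At 0 h the catalytic subunits Polr2a and Polr2b thus stood at opposite ends of the members.

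At 6 h 42 probes were higher in polysomes beyond 2-fold and 8 lower, against 37.4% and 6.41% of all probes. At any size 51 were higher and 12 lower, against 60.0% and 9.96%. With 75th percentile scaling the counts were 11 and 15, with quantile normalization 10 and 14, and 13 of the 50 called probes changed sign in at least 1 scaling. The median of all probes was 0.68, and with 75th percentile scaling -0.63. Among measured probes only, the medians were 1.28 in the members and 1.21 in all. The 8 non-polysomal probes were those of Polr2f, Polr2i, Polr2j, Polr2k, Polr2l, Polr2m and Med30. Polr2a, at 0.35, did not pass the test (limma adjusted p = 0.57; -0.96 when scaled to the 75th percentile and -0.89 when quantile normalized, also not passing), whereas Polr2b remained at 3.35 and 3.15. The shared subunits Polr2f, Polr2k and Polr2l thus kept their non-polysomal position while their level rose with the spike-in scaling. The polysomal rise of Polr2k was 0.23 with 75th percentile scaling (limma adjusted p = 0.053) and 0.05 with quantile normalization (limma adjusted p = 0.72). The other shared subunits, Polr2e (1.38 and 1.13) and Polr2h (1.00), were on the polysomal side at 6 h with the spike-in scaling.

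**Figure D4:**
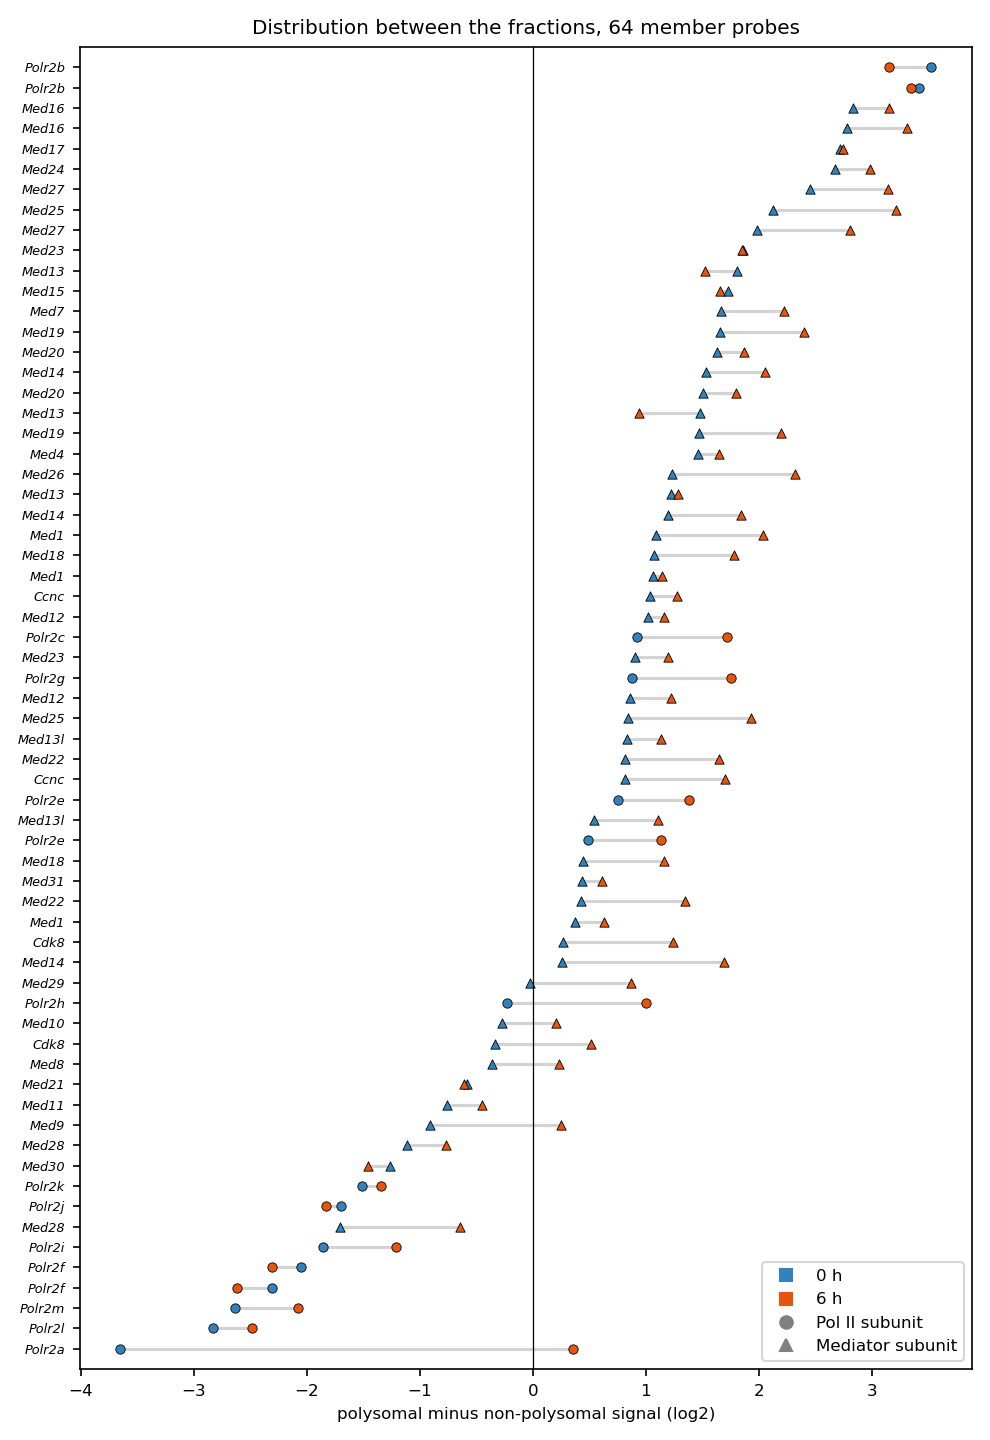
Polysomal minus non-polysomal log2 signal (x axis) of the 64 measured member probes at 0 h and 6 h, ordered by the value at 0 h; circles are RNA polymerase II and triangles Mediator subunits. Polr2b and Med16 lay near 3 at both times, Polr2l, Polr2m and Polr2f near or below -2, and Polr2a moved from -3.65 to 0.35, a value at 6 h whose sign depends on the scaling.

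**Figure D5:**
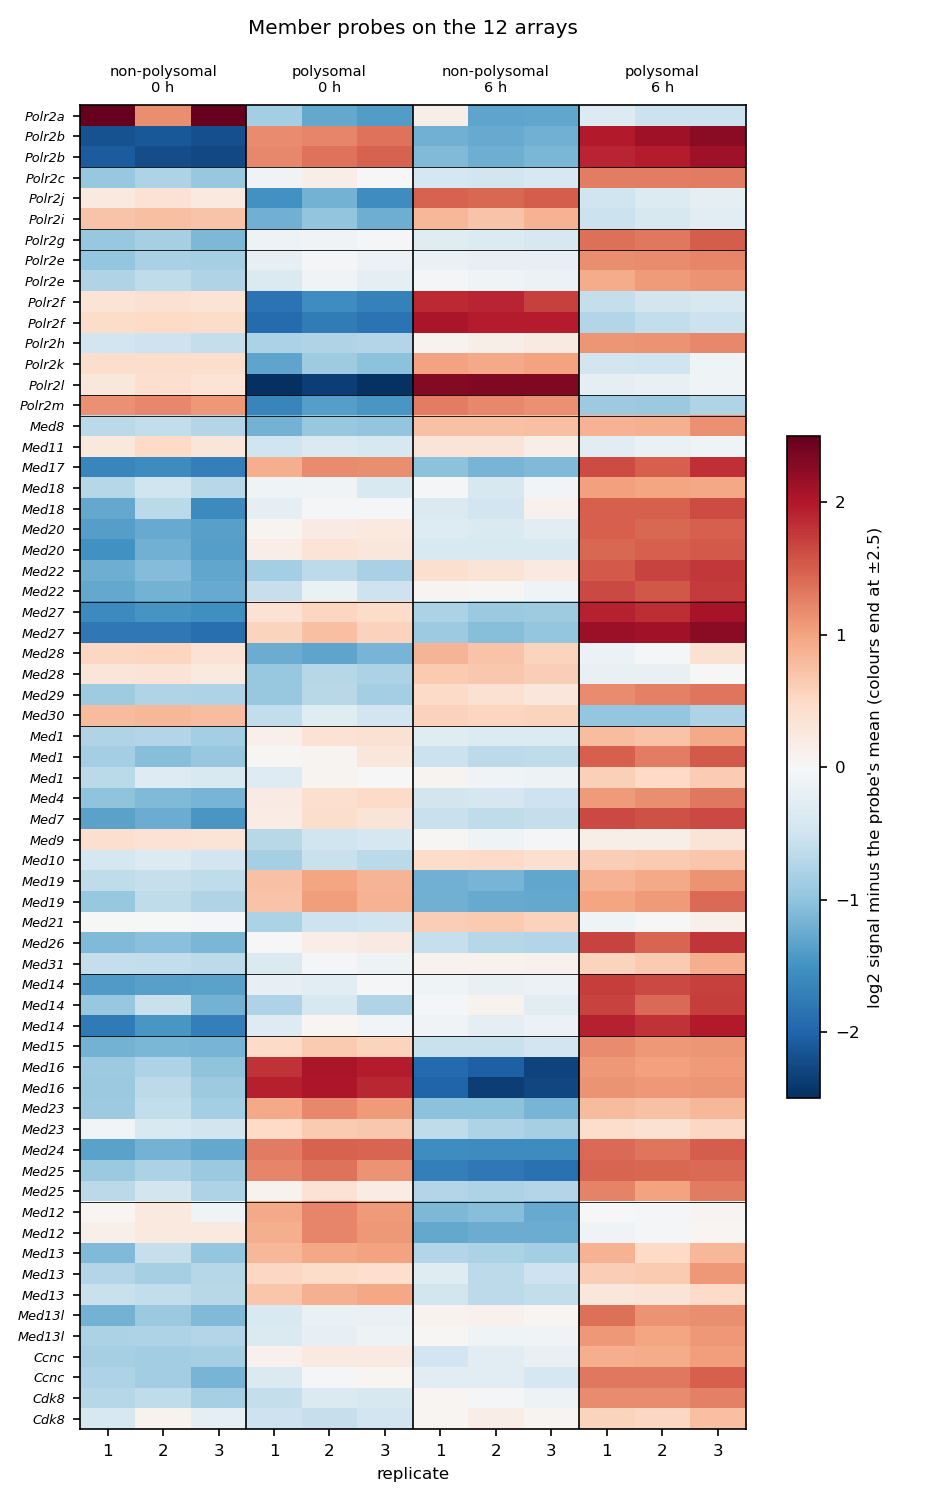
Log2 signal of the 64 measured member probes on the 12 arrays (columns, grouped by fraction and time), each minus the mean of its probe; rows are ordered by role and thin lines separate the roles. The widest spread within a group was that of Polr2a, whose np0 replicate 2 was about 2 log2 units below replicates 1 and 3 (10.18 against 12.22 and 12.05).

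Other genes of the RNA polymerase II machinery were taken from a list of 64 initiation, elongation and assembly factors, 62 of which had 102 probes. By M-value 6 of these were higher beyond 2-fold and 0 lower, against 12.1% and 1.31% of all probes. At any size 52 were higher and 2 lower, against 32.1% and 3.98%, with a median of 0.45. Among measured probes these were 52 and 2 of 100, against 11804 and 1559 of 25025, so the higher share was near that of the array. The 6 were Gtf2f2 (1.29) and Ccnh (1.10) of the general initiation factors TFIIF and TFIIH, Taf6 (1.13), Taf7 (1.07) and Taf3 (1.05) of TFIID, and Gpn3 (1.15), a GTPase of polymerase assembly. The lower ones were Ell2 (-0.73) and Supt16 (-0.49), which act in elongation. In polysomal RNA 36 rose and 0 fell beyond 2-fold, against 19.2% and 5.01% of all probes. Cdk19, the paralog of Cdk8, fell in polysomes at both probes (-0.52 and -0.77) and outside them (-0.79 and -0.97).

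The subunits specific to RNA polymerases I and III had 23 probes of 15 genes, and 8 of these probes were higher by M-value beyond 2-fold and 0 lower, against 12.1% and 1.31% of all probes. Polr1c, a subunit of both, had the highest, 2.70 (limma adjusted p = 1.0e-06), followed by Polr3g (1.78 and 1.46 at 2 of 3 probes). The lowest of the 8 were Polr3e (1.02), Polr1e (1.29) and Polr3c (1.37), and Polr3a was lower (-0.74). Polr1c measured 13.24, 13.31 and 13.19 in np0, 12.22, 12.21 and 12.30 in np6, 13.08, 13.29 and 13.16 in p0 and 14.89, 14.82 and 14.90 in p6. It fell in the non-polysomal (-1.01) and rose in the polysomal fraction (1.69), both with little spread between arrays.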

How the data were processed

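RNA of 12 samples of 3T3-L1 cells was hybridised to one-color Agilent arrays, and the sample titles number the 3 replicates of each group. The placing of the arrays on slides was not examined. The deposited scanner files (Feature Extraction 10.7.1.1, per the file headers) hold intensities per spot, and the background-subtracted intensity was used. The authors also deposited log2 values per probe, used as an alternative. Spots marked as outliers were left out, the spots of a probe were averaged, and each array was shifted on the log2 scale by the mean of the median signals of 10 spike-in transcripts (32 spots each). Probes were named through RefSeq accessions (64.8% of probes). The accession of the Polr2a probe, which current RefSeq does not pair with a gene, was named from the study's own transcript list.

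The 4 groups were fitted together in R 4.3.3 with limma 3.58.1 (lmFit, eBayes, Benjamini-Hochberg adjustment over all probes) and data.table (version 1.17.8). A call needed an adjusted p below 0.05, and beyond 2-fold a log2 difference over 1 or under -1. Precision is limited by 3 arrays per group (median SE of M among measured members 0.13). The M-value and the changes in both fractions come from the same arrays and are not independent. The study describes the replicates as biological; p-values measure the spread between them. The fit was tried on simulated data with equal spread in all groups, no shift between arrays and changes only in probes of low spread. That setting does not cover the scaling shift of p6 or a probe as unevenly spread as Polr2a. Members and gene lists were chosen with earlier results of these data known. Array values were given for Polr2a, for members called by M-value and for the highest and lowest measured M-value of each role, and of the related lists the 3 highest and 3 lowest calls were named. Values of Polr2b, Polr2l, Med22, Med12, Med16 and Polr1c beyond this rule, and the promoters, were chosen after values had been seen. Alternatives were 3 other scalings, normexp background correction (offset 50), the deposited log2 values, a filter on dim probes, outlier spots kept, the replicate number as a block, a trended prior variance and the omission of single arrays or replicate numbers. A second normexp correction, with marked backgrounds replaced, was added after seeing the data.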

Additional observations from a re-analysis of the deposited data

Results flagged for a closer look

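For 8 member probes the change over 6 h differed between the fractions, by a test of the difference itself (the M-value, limma adjusted p below 0.05) and beyond 2-fold. These were Polr2a with an M-value of 4.01, the dim Med14 probe with 1.44, Polr2h with 1.22, Med9 with 1.16, both Med25 probes with 1.09, Med26 with 1.09 and the dim Med28 probe with 1.07. In Polr2a, Med9 and the first Med25 probe the non-polysomal RNA fell, and in Polr2h, Med14 and Med26 both fractions rose, the polysomal one more.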

How the results depend on the processing

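The M-value of Polr2a was positive in all settings. With normexp it was 4.36 (limma adjusted p = 0.073) and without replicate 3 it was 3.41 (limma adjusted p = 0.080), the only settings in which it missed the threshold, and leaving out single arrays or replicate numbers gave 3.41 to 4.66. The cause of the differences between settings was not tested. In every setting the highest other measured member lay below Polr2a, and it came nearest with normexp, where Med14 was at 3.39 and Med28 at 3.03 beside a median of all probes of 3.20.

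The counts beyond 2-fold moved with the scaling. By M-value (8 higher, 0 lower) 75th percentile scaling gave 2 higher, quantile normalization 1 higher and 1 lower, a line through the spike-ins 32, normexp 0 (24 at an unadjusted p below 0.05 in limma) and normexp with replaced backgrounds 4. For the polysomal change (33 higher, 2 lower) 75th percentile scaling gave 16 and 4, quantile normalization 14 and 5, and normexp 21 and 0; the lower count was also 0 with a line through the spike-ins and with replaced backgrounds (each 0 at an unadjusted p as well), 1 with the deposited log2 values and 1 to 2 when a replicate was left out. For the non-polysomal change (13 higher, 5 lower) normexp gave 6 and 2, replaced backgrounds 7 and 2, and the deposited values 8 higher. For the fraction difference at 0 h (28 higher, 11 lower) 75th percentile scaling gave 9 and 21, quantile normalization 10 higher and normexp 11 higher. At 6 h (42 higher, 8 lower) these scalings gave 11 and 15, and 10 and 14. The median M-value of the members (0.53) was 0.11 with 75th percentile scaling, 0.010 with quantile normalization, 0.93 with a line through the spike-ins, 0.95 with normexp, 0.46 with replaced backgrounds and 0.44 to 0.59 when arrays or replicate numbers were left out. That of all probes was 0.49, 0.06, -0.00075, 1.41, 3.20 and 0.46 in the same settings except omission.

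Some small M-values changed sign. A line through the spike-ins gave 0.0092 for the second Polr2b probe, 0.23 for Polr2j, 0.0067 for Polr2f, 0.28 for Med30, 0.43 for Med21, 0.43 for Med15 and 0.18 for Med13. Normexp gave 0.39 for Polr2b, 0.090 for Med30, 0.17 for Med21, 0.60 for Med15 and 1.59 for Med13. Quantile normalization gave -0.028 for Polr2g, -0.51 for Med17 and -0.010 for the bright Med14 probe, and 75th percentile scaling -0.40 for Med17. Leaving out arrays or replicate numbers gave -0.071 to 0.10 for Med17 and -0.12 to 0.034 for Med21. By M-value 6 to 10 probes were higher on such omission.

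With the replicate number as a block the M-value of Polr2a was 4.01 (limma adjusted p = 0.0018), and the counts beyond 2-fold were those given in the text. The main fit did not treat the numbers as pairs. The sample titles do not say whether arrays with the same number came from the same culture or gradient. Deviations of arrays with the same number had a correlation over 0.1 in 4 of 18 pairs, and 8 of 12 arrays were closest to an array of their own number. These values cannot decide whether the arrays were paired by design. The planned relation to protein length was not run because no protein sequences were used here. The unmeasured dim probes of Med12l, Med13 and Med17 set only bounds.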
